A study of Mus musculus with 6 samples.

Results

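The mRNAs of the constitutive proteasome were measured in bEnd.3 cells, a mouse brain endothelial line that was immortalised with polyoma middle T antigen. A gene was taken when its symbol in the deposited table starts with Psma, Psmb, Psmc, Psmd, Psme, Psmf or Psmg followed by a digit, with the interferon-inducible subunits Psmb8, Psmb9 and Psmb10 left out, and when its mean over the 6 libraries was at least 1 FPKM (a fragment count scaled by transcript length and by the mapped total of the library). This gave 45 genes of the 15917 in the table and of the 10400 that passed the same floor and were tested. A total of 46 symbols matched, and the one below the floor was Psme2b, with a mean of 0.703 FPKM. The lowest gene taken was Psmf1, with 16.9 FPKM. By role the 45 were 7 alpha and 7 beta subunits of the 20S core particle, 6 ATPases and 11 other subunits of the 19S regulatory particle, 7 assembly chaperones, 4 activators, 1 inhibitor, and 2 genes named after a proteasome partner, Psmc3ip and Psme3ip1. The counts are thus not of constitutive subunits alone. The activators Psme1 and Psme2 are interferon-inducible too, and the product of Psmc3ip is not a proteasome subunit.

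The knockdown was represented by 3 libraries of bEnd.3 cells with a short hairpin RNA against Npc1, titled shNpc1 with replicate numbers 4, 5 and 6. They were set against 3 libraries of the same line with a control hairpin, titled shControl, numbers 1, 2 and 3. A further tag in the labels calls the control cells WT, and the titles were followed. The labels do not say whether the libraries of a group came from separate cultures or clones, or whether the 3 knockdown libraries carried 1 hairpin sequence, so the p-values below measure the spread between these libraries, which may be technical. The comparison asks which mRNAs differ when Npc1, which exports cholesterol from the lumen of lysosomes, is reduced.

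The proteasome is the protease that degrades ubiquitin-tagged proteins in the cytosol and nucleus. Its barrel-shaped core is built of outer alpha rings, which gate the entrance, and inner beta rings, in which the Psmb5, Psmb6 and Psmb7 proteins carry the active sites. A regulatory cap holds a ring of ATPases that unfold substrates, together with subunits that bind and remove ubiquitin. Assembly is helped by dedicated chaperones. Alternative caps such as the PA28 complexes open the core without ATP. Transcription of the subunit genes is known to be raised together by the transcription factor NRF1, the product of Nfe2l1, when proteasome activity is short, and NRF2, the product of Nfe2l2, has been linked to some subunit genes in oxidative stress. Endothelial cells rely on the proteasome, among other functions, to turn over the inhibitor of NF-kB.

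Npc1 itself was measured at 0.45, 1.20 and 0.97 FPKM in shNpc1 replicates 4, 5 and 6, against 6.31, 6.63 and 7.27 FPKM in shControl replicates 1, 2 and 3. This is 13.0% ± 5.70 of the shControl mean (SD over 3 knockdown libraries), and no knockdown value reached a control value (exact two-sided permutation p = 0.1, the smallest that 3 against 3 libraries allow; log2 difference -2.07, standard error 0.16, adjusted p = 0.000723 in limma). Summed FPKM ran from 661950 to 757026 in shNpc1 libraries and from 674525 to 715326 in shControl libraries, and the read depth is unknown. Of 12 endothelial markers, 10 had a mean of at least 1 FPKM, among them Pecam1, Cdh5 and Emcn, whereas Vwf was low and Cldn5 was listed at 0 in every control library. Summed over each list, markers of fibroblasts reached at most 0.80 FPKM in shNpc1 libraries and 1.13 FPKM in shControl libraries. Mural markers summed to 6.98 to 12.1 FPKM in shNpc1 libraries and 2.06 to 2.21 FPKM in shControl libraries, through Acta2. Macrophage markers summed to 214 to 257 FPKM in shNpc1 libraries and 105 to 113 FPKM in shControl libraries, through the lysosomal gene Cd68, with Ptprc and Csf1r at most 0.10 FPKM. Astrocyte markers summed to 4.96 to 5.87 FPKM in shNpc1 libraries and 1.07 to 1.14 FPKM in shControl libraries, through Aldh1l1. Whether these shifts bear on the proteasome genes was not tested.

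One library stood apart, in the proteasome genes as in all genes. In shNpc1 replicate 4 the difference from the control mean was larger at a higher GC content of the transcript, with a Pearson r of 0.72 and a Spearman rho of 0.73 over the 45 genes. In shNpc1 replicates 5 and 6 the corresponding r was 0.063 and 0.24, and the rho was 0.076 and 0.29. The points of a library share its preparation, and over all 10247 tested genes with a known GC content r was 0.63, 0.10 and 0.31 in replicates 4, 5 and 6. In replicate 4 the 15 genes of highest GC content stood at a median log2 of 0.32 above the control mean, while the 15 of lowest GC content stood at -0.21. In replicate 5 the same genes were at -0.097 and -0.12, and in replicate 6 at 0.044 and -0.13. All 7 beta subunits had their highest knockdown value in replicate 4, as did 28 of the 45 genes, and 29 of the 45 had their lowest in replicate 5. The coefficient of variation among replicates had a median of 10.03% in shNpc1 and 4.48% in shControl, and 4.72% between shNpc1 replicates 5 and 6, beside 11.4% in shNpc1 and 5.18% in shControl over all tested genes.

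**Figure D1:**
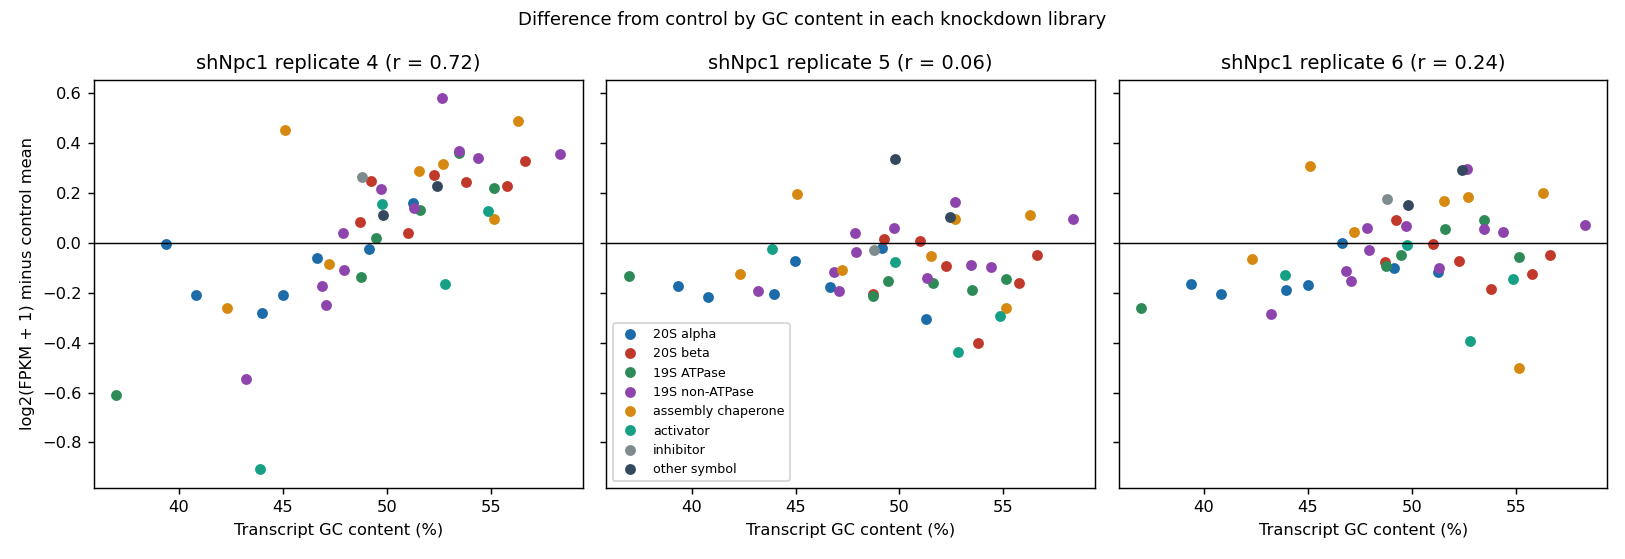
Each point is 1 of the 45 genes, coloured by role; the x axis gives the GC content of its longest coding transcript in percent and the y axis its log2(FPKM + 1) in 1 knockdown library minus the mean of the 3 control libraries. The points climb with GC content in shNpc1 replicate 4 (r = 0.72) and show a shallow or flat pattern in replicates 5 and 6 (r = 0.063 and 0.24).

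The proteasome mRNAs were abundant, and few of them passed the test between knockdown and control. Mean levels ran from 17.5 to 459 FPKM in shNpc1 cells and from 15.98 to 479.7 FPKM in shControl cells, with medians of 175 and 169 FPKM, beside medians of 15.5 and 15.2 FPKM over all tested genes. In each group 32 of the 45 genes had a mean above 100 FPKM. Their order by level was nearly the same in both groups (Spearman rho 0.99 over 45 genes). Together they made up 1.18%, 1.17% and 1.18% of the summed FPKM in shNpc1 replicates 4, 5 and 6, and 1.22%, 1.23% and 1.24% in shControl replicates 1, 2 and 3. The 3 knockdown shares lay below the 3 control shares. In bulk RNA a smaller share of cells with a transcript and less of it in each cell cannot be told apart.

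**Figure D2:**
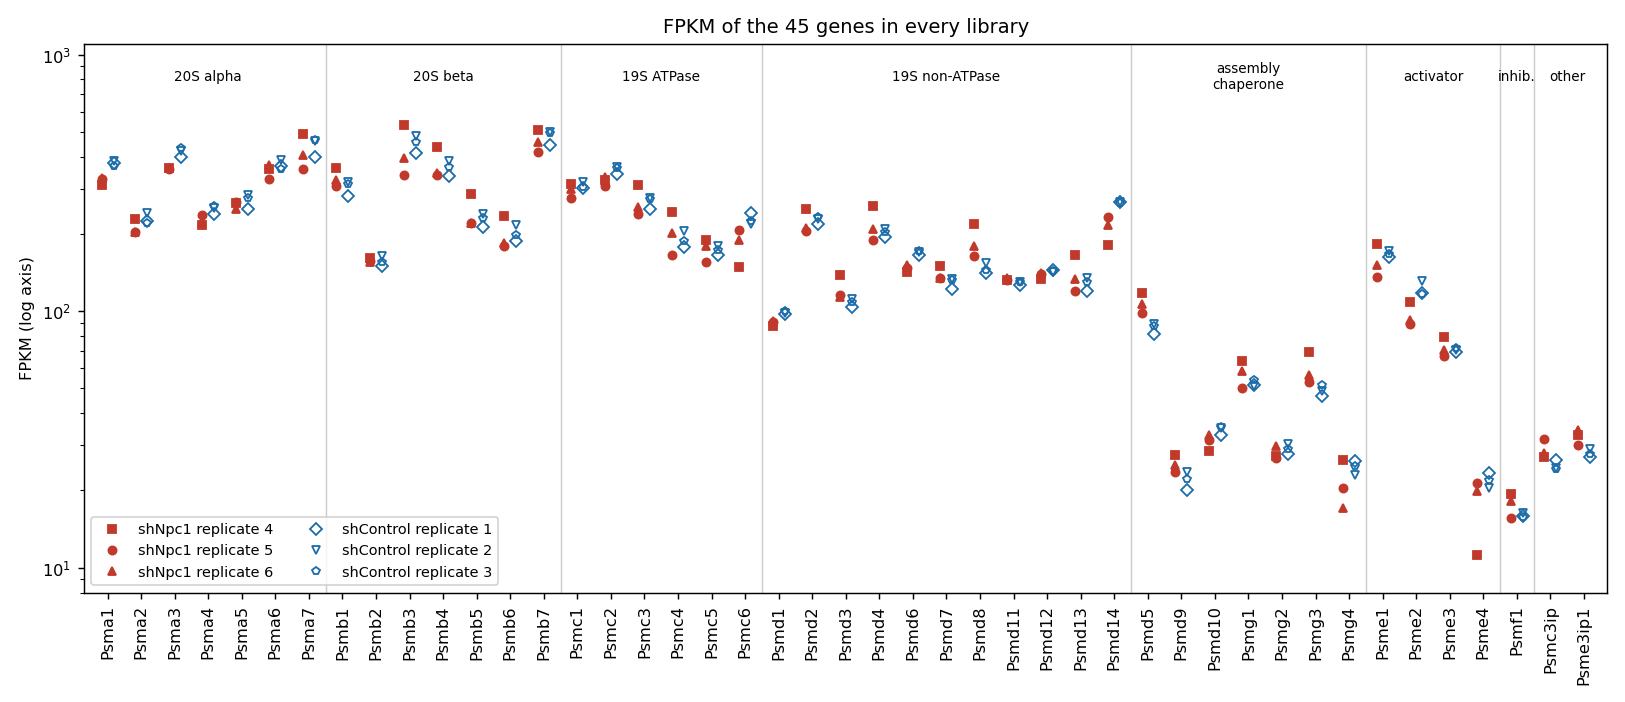
FPKM (log axis) of the 45 genes in each library, grouped by role along the x axis, with shNpc1 replicates as filled red symbols left of the open blue shControl replicates. Core and regulatory subunits lie between 87.5 and 531 FPKM, mostly with overlapping groups, while most chaperones and alternative caps lie lower; the red squares of shNpc1 replicate 4 are the highest of the knockdown symbols for all 7 beta subunits.

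In limma, with Benjamini-Hochberg adjustment over the 10400 genes and a threshold of 0.05, 1 of the 45 genes was higher in shNpc1 cells (Psmd5) and 2 were lower (Psma1 and Psme2). Over all tested genes 12.0% were called higher and 5.89% lower, so that 2.22% of the proteasome genes stood against 12.0% and 4.44% against 5.89%. The groups did not overlap for 8 genes with the knockdown above and 11 with it below, 17.8% and 24.4% of the 45, beside 27.4% and 16.1% of all tested genes. The median log2 difference was -0.034, beside 0.026 over all tested genes, and its median size without sign was 0.11, beside 0.17. Ratios of mean FPKM ran from 0.793 for Psmd14 to 1.28 for Psmd8. For 42 of the 45 genes the whole 95% interval of the difference lay within 1.5-fold of no change; the exceptions were Psmc6, Psmd8 and Psme4. That number was 38, 39 and 36 without shControl replicates 1, 2 and 3, and 45, 40 and 40 without shNpc1 replicates 4, 5 and 6. The median log2 difference was -0.077 without shNpc1 replicate 4, and its sign turned without replicate 5, to 0.022.

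These calls were few and rested on the set of libraries. Without shControl replicate 1, 2 or 3 or shNpc1 replicate 6 no proteasome gene passed, while 501, 650, 469 and 722 of all tested genes did. In these fits 6, 9, 5 and 8 proteasome genes had an unadjusted limma p under 0.05. The share of all tested genes under that unadjusted threshold was not counted, here or below. Such counts are therefore description only and not a result about the proteasome genes. Without shNpc1 replicate 4, 3 were higher (Psmd5, Psmd8 and Psmc3ip) and 9 lower (Psma1, Psma2, Psma3, Psmb3, Psmd6, Psmd14, Psme1, Psme2 and Psmg4), beside 18.3% and 10.1% of all tested genes. Without shNpc1 replicate 5, 4 were higher (Psmd5, Psmd8, Psmg3 and Psme3ip1) and 3 lower (Psma1, Psmc6 and Psmd14), beside 14.9% and 10.4% of all tested genes. After a correction of each library for GC content, 0 were higher (2 at an unadjusted p under 0.05) and 4 lower (Psmd6, Psmd14, Psme1 and Psme2), beside 13.5% and 11.8% of the tested genes. Among all tested genes the share of calls that were higher was 67.1%, and it was 76.4% after scaling to TPM, 55.3% with a trimmed mean of M values, 52.8% with median centring and 53.3% after the GC correction. By the q-values of the authors' deposited table, 4 of the 45 genes were under 0.05, all lower (Psmd14, Psma1, Psma3 and Psme2), beside 6.48% higher and 5.60% lower of its 15917 genes.

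**Figure D3:**
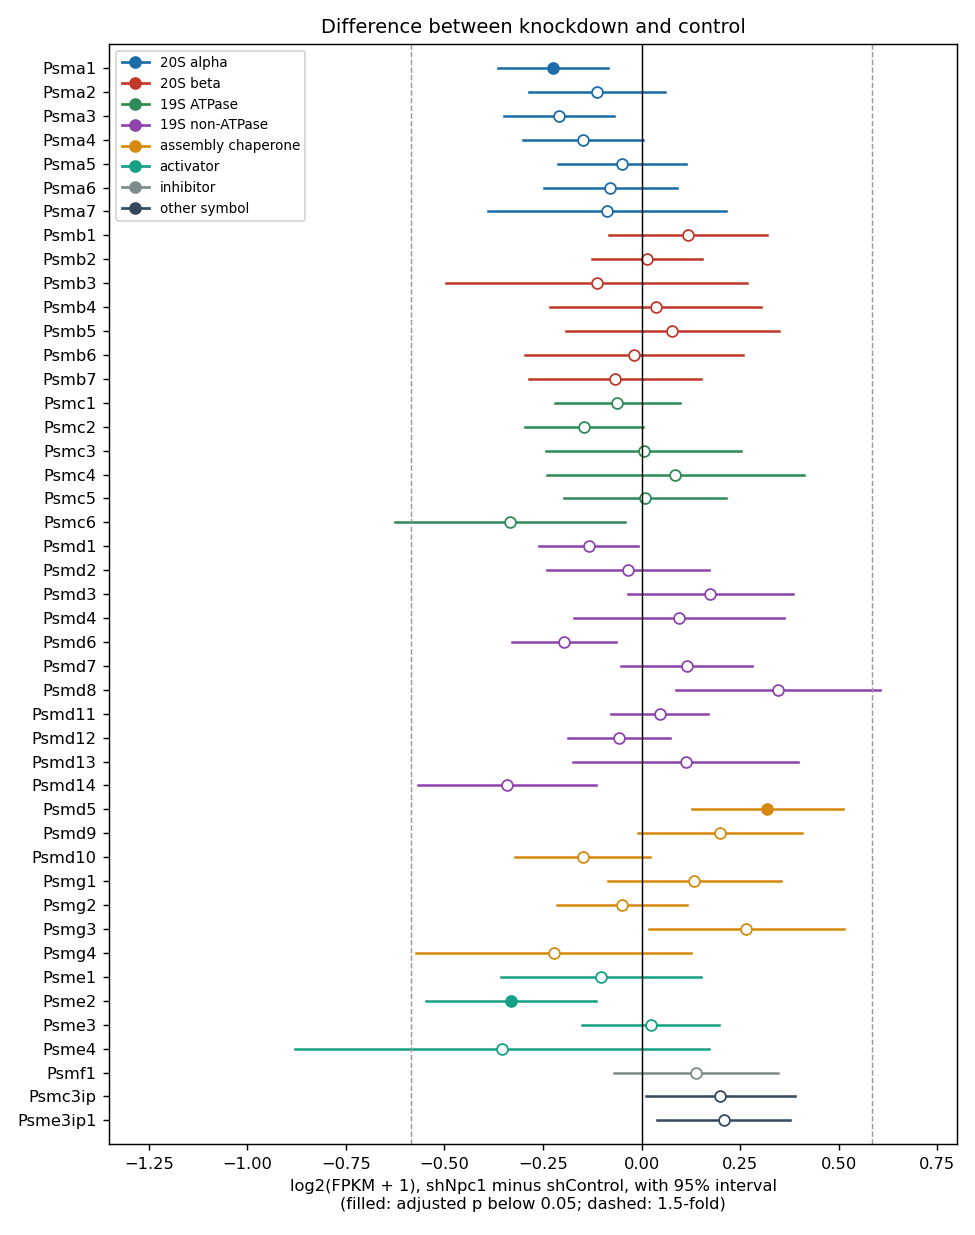
Difference in log2(FPKM + 1), shNpc1 minus shControl, for each of the 45 genes (points) with its 95% interval from limma (lines), coloured by role; filled points passed the adjusted p threshold of 0.05 and dashed lines mark 1.5-fold. The 7 alpha subunits all lie left of 0 (5 of them after the GC correction), Psmd5 is the filled point on the right, and only the intervals of Psmc6, Psmd8 and Psme4 cross a dashed line.

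The promoters of the called genes are shown for the letters near their starts, with that of Psmb5 as an active-site gene and that of Psmd6 as an example with an ETS core. Windows of 300 bases, from 250 before to 50 after the gene's start, came from RefSeq on GRCm38.p6 and were found for 38 of the 45 genes; Psmb1, Psmb2, Psmb7, Psmc3, Psmd3, Psmd7 and Psmg2 had none. All 5 printed lie on the minus strand and read 5′ to 3′ along the gene. Psmd5 is at chr2:34870913-34871212, Psma1 at chr7:114276067-114276366, Psme2 at chr14:55591052-55591351 (the more upstream of its 2 windows), Psmb5 at chr14:54617946-54618245 and Psmd6 at chr14:14120896-14121195. Capitals mark matches to the motifs named in the next paragraph.
Psmd5: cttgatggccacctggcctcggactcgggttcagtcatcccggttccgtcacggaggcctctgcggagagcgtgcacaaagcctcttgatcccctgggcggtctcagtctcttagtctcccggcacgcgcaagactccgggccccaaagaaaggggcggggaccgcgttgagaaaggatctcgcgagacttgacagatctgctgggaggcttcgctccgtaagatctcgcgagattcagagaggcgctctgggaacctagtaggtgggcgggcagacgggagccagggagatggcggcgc
Psma1: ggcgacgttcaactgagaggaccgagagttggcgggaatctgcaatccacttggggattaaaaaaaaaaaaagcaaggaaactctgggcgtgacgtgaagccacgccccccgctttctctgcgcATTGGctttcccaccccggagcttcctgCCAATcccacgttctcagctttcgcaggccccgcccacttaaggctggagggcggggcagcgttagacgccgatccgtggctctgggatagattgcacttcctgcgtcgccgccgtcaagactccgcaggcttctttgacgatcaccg
Psme2: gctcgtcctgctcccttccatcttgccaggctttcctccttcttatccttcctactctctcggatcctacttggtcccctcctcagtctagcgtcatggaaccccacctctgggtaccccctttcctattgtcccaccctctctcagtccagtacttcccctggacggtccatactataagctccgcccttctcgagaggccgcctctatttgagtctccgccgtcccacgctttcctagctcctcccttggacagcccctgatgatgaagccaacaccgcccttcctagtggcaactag
Psmb5: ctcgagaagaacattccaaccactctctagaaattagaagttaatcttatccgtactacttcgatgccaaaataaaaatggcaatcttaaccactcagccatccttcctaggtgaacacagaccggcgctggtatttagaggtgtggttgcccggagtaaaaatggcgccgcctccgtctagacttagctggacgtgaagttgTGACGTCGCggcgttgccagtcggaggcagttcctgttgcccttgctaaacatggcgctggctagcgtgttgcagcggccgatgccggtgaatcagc
Psmd6: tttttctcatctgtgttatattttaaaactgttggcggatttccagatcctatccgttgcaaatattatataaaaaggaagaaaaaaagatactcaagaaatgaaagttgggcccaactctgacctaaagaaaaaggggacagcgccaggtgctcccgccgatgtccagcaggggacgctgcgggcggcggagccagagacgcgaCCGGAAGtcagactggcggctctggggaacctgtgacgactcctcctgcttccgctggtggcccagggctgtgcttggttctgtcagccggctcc

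The motifs were searched on both strands, as letters only, and a gene was counted when any of its windows held a match. The antioxidant response element core TGACNNNGC, to which NRF1 and NRF2 bind, was in 6 of 38 proteasome genes (15.8%), Psmb5, Psmb6, Psmc6, Psmd9, Psmd12 and Psme4, beside 16.8% of the 8442 tested genes with a window and 14.0% of all 27025 genes. In the Psmb5 window it begins 47 bases before the start. The ETS core CCGGAAG was in 16 of 38 (42.1%), beside 22.4% of tested and 9.9% of all genes; in Psmd6 it begins 45 bases before the start. The box CCAAT was in 14 of 38 (36.8%), beside 44.3% of tested and 41.1% of all genes, and Psma1 held it once on each strand, beginning 126 and 98 bases before the start. The letters GAAANNGAA, the core of an interferon response element, were in 7 of 38 (18.4%), beside 8.4% and 9.8%. The E-box CACGTG was in 4 of 38 (10.5%), beside 12.3% and 8.1%. The printed Psmd5 and Psme2 windows held no match to any of these 5 motifs.

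Among the alpha subunits of the core, which form the gated outer rings, 1 of 7 was lower and 0 were higher, and the median log2 difference was -0.11. All 7 had a log2 below 0, from -0.22 to -0.049, beside 24 of the 45 genes. All 7 stayed below 0 without shNpc1 replicate 4 (median -0.17), where 32 of the 45 genes were below 0. After the GC correction 5 of the 7 were below 0 (median -0.053), beside 29 of the 45 genes. Their median GC content, 44.98%, was the lowest among the roles. Psma1 had 309.9, 327 and 330.0 FPKM in shNpc1 replicates 4, 5 and 6, against 378, 383 and 368 FPKM in shControl replicates 1, 2 and 3. Every knockdown value lay below every control value. Psma1 averaged 322 ± 10.8 FPKM in shNpc1 cells and 376 ± 7.52 FPKM in shControl cells (SD, n = 3 each), a ratio of 0.856 (log2 difference -0.22, standard error 0.059, adjusted p = 0.0417 in limma). The log2 difference was -0.20 without shNpc1 replicate 4 (limma adjusted p = 0.018) and -0.093 after the GC correction (adjusted p = 0.468). Over all alternatives the limma adjusted p ran from 0.000102 to 0.468. The lowest came with sample weights, a fit that called 70.7% of all tested genes.

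Psma3 had 361, 359 and 361 FPKM in the shNpc1 libraries, against 399.9, 419 and 431 FPKM in the shControl libraries. The groups were apart here too, and the knockdown replicates lay within 3 FPKM of each other, but the gene did not pass (log2 difference -0.21, standard error 0.059, adjusted p = 0.0511 in limma). Its log2 difference was 0.029 after the GC correction and -0.21 without shNpc1 replicate 4 (limma adjusted p = 0.021). Psma4, which helps to close the gate of the core, had 216, 237 and 222 FPKM in the shNpc1 libraries, against 239.8, 252 and 258 FPKM in the shControl libraries. It did not pass, although its groups were apart (log2 difference -0.15, standard error 0.064, adjusted p = 0.15 in limma; -0.12 without shNpc1 replicate 4). For Psma2, Psma5, Psma6 and Psma7 the groups overlapped, with log2 differences of -0.11, -0.049, -0.079 and -0.087. Psma7, the most abundant alpha gene, had 492, 357 and 407 FPKM in the shNpc1 libraries, against 399.6, 461 and 465 FPKM in the shControl libraries. Its knockdown values spanned its control values on both sides.

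None of the 7 beta subunits was called, and all of their groups overlapped (median log2 0.014; limma unadjusted p from 0.20 to 0.87, so 0 at an unadjusted p under 0.05). The active-site genes were measured as follows. Psmb5, the chymotrypsin-like subunit, had 286, 220.0 and 220.0 FPKM in shNpc1 replicates 4, 5 and 6, against 214, 239 and 230.1 FPKM in shControl replicates 1, 2 and 3. Psmb6, the caspase-like subunit, had 235, 179 and 184 FPKM in the shNpc1 libraries, against 187, 217 and 199 FPKM in the shControl libraries. Psmb7, the trypsin-like subunit and the most abundant of the 45 genes by control mean, had 507, 415 and 454 FPKM in the shNpc1 libraries, against 446, 499 and 494 FPKM in the shControl libraries. In each of the 3, shNpc1 replicate 4 was the highest of the 6 libraries and replicates 5 and 6 lay within or below the control range. Their log2 differences were 0.078 (95% interval -0.19 to 0.35), -0.020 (-0.30 to 0.26) and -0.066 (-0.28 to 0.15).

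The remaining beta subunits are structural. Psmb2, the least abundant of them, had 161, 157 and 156 FPKM in the shNpc1 libraries, against 150.3, 164 and 155 FPKM in the shControl libraries. It was the steadiest of the beta genes (log2 difference 0.014, 95% interval -0.13 to 0.15). Psmb3 was the most spread, with 531, 339 and 394 FPKM in the shNpc1 libraries, against 412, 480.4 and 455 FPKM in the shControl libraries. Its knockdown libraries included both the highest and the lowest of the 6 values. Without shNpc1 replicate 4 it was called lower (log2 -0.29, limma adjusted p = 0.0387). Psmb1 had a log2 difference of 0.12 and Psmb4 of 0.035, neither past the threshold. The median of the 7 was 0.25 above the control mean in shNpc1 replicate 4, and -0.094 and -0.072 in replicates 5 and 6.

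The interferon-inducible counterparts, which replace the standard active-site subunits in the immunoproteasome, were far less abundant. Psmb9 (in place of Psmb6) had 1.45, 1.39 and 1.81 FPKM in the shNpc1 libraries, against 1.05, 1.33 and 1.02 FPKM in the shControl libraries, with the knockdown above the controls. Psmb10 (in place of Psmb7) had 16.6, 11.3 and 12.9 FPKM in the shNpc1 libraries, against 15.7, 16.99 and 15.8 FPKM in the shControl libraries, with the groups overlapping. Psmb8 (in place of Psmb5) had 1.66, 1.52 and 1.04 FPKM in the shNpc1 libraries, against 1.06, 1.15 and 2.22 FPKM in the shControl libraries, also overlapping. None passed (adjusted p = 0.131, 0.222 and 0.95 in limma), but Psmb10 was called lower without shNpc1 replicate 4 (log2 -0.39, adjusted p = 0.00662) and after the GC correction (log2 -0.40, adjusted p = 0.0104).

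**Figure D4:**
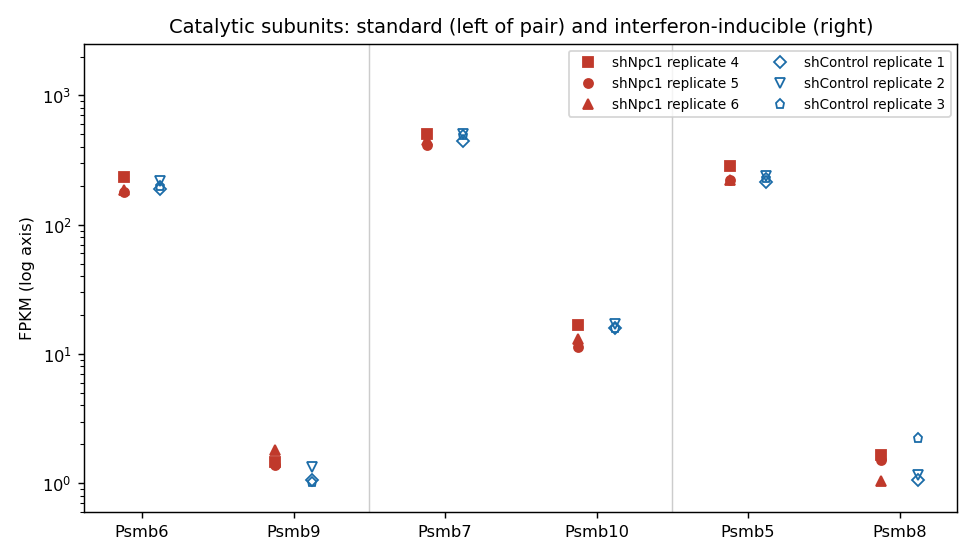
FPKM (log axis) of the 3 standard active-site genes, each beside its interferon-inducible counterpart, with shNpc1 libraries as filled red symbols left of the open blue shControl libraries. The standard genes lie between 179 and 507 FPKM and the inducible ones between 1.02 and 17.0 FPKM, with Psmb10 the highest of these.

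Of the 6 ATPases of the regulatory ring 0 were called higher and 0 lower (median log2 -0.028). Only 1, Psmc6, had an unadjusted limma p under 0.05, and the share of all tested genes under that threshold was not counted. Psmc6 had 149, 208 and 190.2 FPKM in shNpc1 replicates 4, 5 and 6, against 241, 218 and 225 FPKM in shControl replicates 1, 2 and 3. All of its knockdown values lay below the controls, most clearly in replicate 4. It averaged 182 ± 30.05 FPKM in shNpc1 cells and 228 ± 11.98 FPKM in shControl cells (SD, n = 3 each), a ratio of 0.799 (log2 difference -0.33, standard error 0.12, adjusted p = 0.107 in limma). Its transcript had the lowest GC content of the 45, 36.97%, and the log2 difference was 0.028 after the GC correction and -0.20 without shNpc1 replicate 4.

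Psmc2, the most abundant ATPase gene, had 324, 308 and 334 FPKM in the shNpc1 libraries, against 343, 364 and 363 FPKM in the shControl libraries. These groups were apart by a small margin (log2 difference -0.15, standard error 0.063, adjusted p = 0.15 in limma; -0.15 without shNpc1 replicate 4). Psmc1, Psmc3, Psmc4 and Psmc5 had overlapping groups and log2 differences of -0.061, 0.0053, 0.086 and 0.0087. Without shNpc1 replicate 4 all 6 ATPases had a log2 below 0 (median -0.10), and none was called. At an unadjusted limma p under 0.05 were 2 of them, again without a counted share of all tested genes.

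The 11 other subunits of the regulatory particle held the lowest and the highest ratio among the 45 genes, and none of the 11 passed. At an unadjusted limma p under 0.05 were 4 of them (Psmd1, Psmd6, Psmd8 and Psmd14). That number is description only, as the share of all tested genes under the same threshold was not counted. Psmd14, the deubiquitinase that strips ubiquitin chains from substrates, had 181, 232 and 217 FPKM in shNpc1 replicates 4, 5 and 6, against 265, 265 and 264 FPKM in shControl replicates 1, 2 and 3. The controls lay within 2 FPKM of each other and every knockdown value was lower, with replicate 4 the lowest. It averaged 210.1 ± 25.98 FPKM in shNpc1 cells and 265 ± 0.676 FPKM in shControl cells (SD, n = 3 each), a ratio of 0.793 (log2 difference -0.34, standard error 0.095, adjusted p = 0.0503 in limma). The authors' deposited table gives Psmd14 a log2 ratio of -0.36 and q = 0.011. It was called lower without shNpc1 replicate 4 (log2 -0.24, limma adjusted p = 0.00971) and after the GC correction (log2 -0.18, adjusted p = 0.045).

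Psmd7, the catalytically inactive partner of the Psmd14 protein, had 149.9, 135 and 135 FPKM in the shNpc1 libraries, against 122, 133 and 132 FPKM in the shControl libraries. Here the knockdown values lay just above the controls (log2 difference 0.11, standard error 0.070, adjusted p = 0.284 in limma; 0.064 without shNpc1 replicate 4). Psmd8 had 219, 164 and 180.0 FPKM in the shNpc1 libraries, against 141, 153 and 145 FPKM in the shControl libraries. Its knockdown values were all above the controls, with replicate 4 the highest, and it averaged a ratio of 1.28 (log2 difference 0.35, standard error 0.11, adjusted p = 0.0704 in limma). It was called higher without shNpc1 replicate 4 (log2 0.23, limma adjusted p = 0.0249) and not after the GC correction (log2 0.24, adjusted p = 0.0588).

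Psmd6, a subunit of the lid of the regulatory particle, had 142, 147 and 152 FPKM in the shNpc1 libraries, against 165, 169 and 171 FPKM in the shControl libraries. The groups were apart by over 10 FPKM (log2 difference -0.20, standard error 0.056, adjusted p = 0.053 in limma), and the gene was called lower without shNpc1 replicate 4 (adjusted p = 0.0242) and after the GC correction (adjusted p = 0.0458). Psmd1, a large scaffold of the base, had 87.5, 90.9 and 91.4 FPKM in the shNpc1 libraries, against 97.8, 98.6 and 99.9 FPKM in the shControl libraries. Its values were tight in both groups and the knockdown was lower in every library, without passing (log2 difference -0.13, standard error 0.053, adjusted p = 0.124 in limma; -0.11 without shNpc1 replicate 4). Psmd2, the other large scaffold, had overlapping groups (log2 difference -0.034, 95% interval -0.24 to 0.17), as had Psmd4, a ubiquitin receptor (log2 difference 0.095, -0.17 to 0.36), and Psmd13 (log2 difference 0.11, -0.17 to 0.40). Psmd3 and Psmd11 lay above the controls in every knockdown library and Psmd12 below, with log2 differences of 0.17, 0.046 and -0.058, none of them called. The Psmd3 transcript had the highest GC content of the 45, 58.3%. Its log2 difference was 0.0083 after the GC correction and 0.084 without shNpc1 replicate 4.

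Of the 7 assembly chaperones 1 was higher and 0 were lower (median log2 0.13, and 0.058 without shNpc1 replicate 4). Psmd5, which holds ATPase subunits while the base of the regulatory particle is put together, had 118, 98.5 and 107 FPKM in shNpc1 replicates 4, 5 and 6, against 81.4, 88.9 and 87.5 FPKM in shControl replicates 1, 2 and 3. All knockdown values lay above all controls. It averaged 108 ± 9.63 FPKM in shNpc1 cells and 85.9 ± 4.02 FPKM in shControl cells (SD, n = 3 each), a ratio of 1.25 (log2 difference 0.32, standard error 0.081, adjusted p = 0.0379 in limma). The log2 difference was 0.41 after the GC correction (limma adjusted p = 0.0622) and 0.25 without shNpc1 replicate 4 (adjusted p = 0.0158). Over all alternatives the limma adjusted p ran from 1.11e-05 (with sample weights) to 0.156.

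The other chaperones of the regulatory particle were lower in abundance. Psmd9 had 27.5, 23.5 and 25.03 FPKM in the shNpc1 libraries, against 20.1, 23.7 and 22.1 FPKM in the shControl libraries, with groups that overlapped (log2 difference 0.20). Psmd10, also called gankyrin, had 28.6, 31.5 and 32.9 FPKM in the shNpc1 libraries, against 32.97, 34.9 and 35.4 FPKM in the shControl libraries, with the knockdown lower in every library but not past the threshold (log2 difference -0.15, standard error 0.073, adjusted p = 0.192 in limma; -0.094 without shNpc1 replicate 4 and 0.039 after the GC correction). Among the chaperones of the alpha ring, Psmg1 and its partner Psmg2 had log2 differences of 0.13 and -0.050. Psmg3 had 69.2, 53.03 and 56.4 FPKM in the shNpc1 libraries, against 46.8, 48.9 and 51.5 FPKM in the shControl libraries. Its knockdown values were above the controls (log2 difference 0.27, standard error 0.10, adjusted p = 0.123 in limma; 0.15 without shNpc1 replicate 4), whereas those of its partner Psmg4 overlapped them (log2 difference -0.22), with 26.3, 20.4 and 17.1 FPKM in shNpc1 libraries and 26.00, 22.9 and 24.9 FPKM in shControl libraries. Without shNpc1 replicate 4 Psmg4 was called lower (log2 -0.38, limma adjusted p = 0.0138).

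Of the 4 activators 1 was lower and 0 were higher (median log2 -0.22). Psme2, the interferon-inducible beta subunit of PA28, had 108, 89.4 and 92.2 FPKM in shNpc1 replicates 4, 5 and 6, against 118, 131 and 116 FPKM in shControl replicates 1, 2 and 3. Every knockdown value lay below every control value. It averaged 96.6 ± 10.2 FPKM in shNpc1 cells and 122 ± 8.01 FPKM in shControl cells (SD, n = 3 each), a ratio of 0.795 (log2 difference -0.33, standard error 0.091, adjusted p = 0.048 in limma). The log2 difference was -0.42 without shNpc1 replicate 4 (limma adjusted p = 0.00244) and -0.44 after the GC correction (adjusted p = 0.00243). Over all alternatives the limma adjusted p ran from 8.63e-06 (with sample weights) to 0.159. Psme2b, a near-identical copy that fell below the floor, had 0.17, 0.55 and 0.50 FPKM in the shNpc1 libraries, against 1.37, 0.79 and 0.84 FPKM in the shControl libraries, so reads of the 2 genes may have been divided between them in a way that is not given.

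Psme1, the alpha subunit of PA28 and also interferon-inducible, had 183, 136 and 151 FPKM in the shNpc1 libraries, against 163, 171 and 167 FPKM in the shControl libraries. Replicate 4 was above the controls and the other knockdown libraries below (log2 difference -0.10, standard error 0.11, adjusted p = 0.513 in limma). Psme1 was called lower without shNpc1 replicate 4 (log2 -0.22, limma adjusted p = 0.0249) and after the GC correction (log2 -0.24, adjusted p = 0.0346). Psme3, the nuclear PA28 gamma subunit, had 78.95, 67.1 and 70.3 FPKM in the shNpc1 libraries, against 69.5, 70.8 and 72.03 FPKM in the shControl libraries. Its groups overlapped (log2 difference 0.023, 95% interval -0.15 to 0.20). Psme4, the large nuclear activator PA200, had 11.2, 21.5 and 19.9 FPKM in the shNpc1 libraries, against 23.3, 20.4 and 21.9 FPKM in the shControl libraries. Replicate 4 alone was far below the rest, and the log2 difference of -0.35 became -0.077 without it.

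Psmf1, a proteasome inhibitor also known as PI31, had 19.4, 15.7 and 18.2 FPKM in the shNpc1 libraries, against 15.8, 16.4 and 15.7 FPKM in the shControl libraries, with overlapping groups (log2 difference 0.14, standard error 0.088, adjusted p = 0.301 in limma; 0.074 without shNpc1 replicate 4). The genes named after a partner were higher in every knockdown library without passing. Psmc3ip, whose product acts in meiotic recombination and is not a proteasome subunit, had 27.1, 31.9 and 27.9 FPKM in the shNpc1 libraries, against 26.3, 24.5 and 24.3 FPKM in the shControl libraries (log2 difference 0.20, standard error 0.080, adjusted p = 0.128 in limma), and it was called higher without shNpc1 replicate 4 (adjusted p = 0.0342). Psme3ip1, whose product binds PA28 gamma, had 32.9, 30.1 and 34.5 FPKM in the shNpc1 libraries, against 27.1, 29.01 and 27.8 FPKM in the shControl libraries (log2 difference 0.21, standard error 0.071, adjusted p = 0.0861 in limma; 0.20 without shNpc1 replicate 4). With the 31 subunits of the 20S and 19S particles alone, 0 were higher and 1 was lower, and the median log2 difference was -0.049. For Psmc3ip the authors' deposited table gives a log2 ratio of 0.093 and q = 0.79. Spans of 8 of the 45 genes overlap another gene of the table in RefSeq, namely Psma4, Psmd1, Psmd10, Psme1, Psme4, Psmf1, Psmc3ip and Psme3ip1. These are spans of whole genes with their introns, and exons were not compared. As strand use is not given, reads within a shared stretch may not be told from those of the neighbour.

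Of a list of 27 genes that work with the proteasome, namely receptors, assembly and regulatory genes, ubiquitin genes and extraction factors, 26 were tested, 2 were higher and 1 was lower (median log2 -0.0083). These are 7.69% and 3.85% of the 26, beside 12.0% and 5.89% of all tested genes. Nfe2l1, the gene of the transcription factor that raises proteasome subunit genes together, had 38.8, 39.4 and 39.4 FPKM in shNpc1 replicates 4, 5 and 6, against 47.9, 45.6 and 45.1 FPKM in shControl replicates 1, 2 and 3. All knockdown values were lower, and it averaged 39.2 ± 0.341 FPKM in shNpc1 cells and 46.2 ± 1.504 FPKM in shControl cells (SD, n = 3 each). The ratio was 0.849 (log2 difference -0.23, standard error 0.056, adjusted p = 0.0326 in limma; -0.22 without shNpc1 replicate 4). Nfe2l2, the NRF2 gene, had 94.2, 99.97 and 99.5 FPKM in the shNpc1 libraries, against 74.6, 73.9 and 79.2 FPKM in the shControl libraries. All knockdown values were higher, with a ratio of 1.29 (log2 difference 0.36, standard error 0.059, adjusted p = 0.0094 in limma; 0.39 without shNpc1 replicate 4). Akirin2, whose product brings proteasomes into the nucleus, had 116, 103 and 109.7 FPKM in the shNpc1 libraries, against 85.9, 94.6 and 92.4 FPKM in the shControl libraries, again all higher in the knockdown (log2 difference 0.27, standard error 0.070, adjusted p = 0.0409 in limma; 0.23 without shNpc1 replicate 4).

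The calls of Nfe2l1 and Akirin2 were lost without shControl replicate 1, 2 or 3 or shNpc1 replicate 6, and that of Nfe2l2 without shControl replicate 1 or 2 or shNpc1 replicate 6. That of Nfe2l1 was also lost with TPM, and that of Akirin2 without a filter, with median centring, with a trimmed mean of M values and without the trend. Over all alternatives the limma adjusted p ran from 4.46e-05 to 0.156 for Nfe2l1, 2.43e-05 to 0.168 for Akirin2 and 2.16e-06 to 0.0599 for Nfe2l2. The lowest of each came with sample weights. Pomp, a chaperone that helps to assemble the core, had 557, 566 and 530.5 FPKM in the shNpc1 libraries, against 595, 592 and 579.9 FPKM in the shControl libraries, with the knockdown below the controls but not past the threshold (log2 difference -0.096, adjusted p = 0.295; -0.10 without shNpc1 replicate 4). Usp14, a ubiquitin-trimming enzyme bound to the regulatory particle, had 78.6, 84.00 and 88.5 FPKM in the shNpc1 libraries, against 97.7, 96.3 and 94.3 FPKM in the shControl libraries (log2 difference -0.20, standard error 0.064, adjusted p = 0.0735 in limma). Its knockdown values lay below the controls, and it was called lower without shNpc1 replicate 4 (log2 -0.15, adjusted p = 0.0426), with a trimmed mean of M values (log2 -0.24, adjusted p = 0.049) and with sample weights (log2 -0.11, adjusted p = 0.00265). After the GC correction its sign turned (log2 0.092, adjusted p = 0.592).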

How the data were processed

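Libraries were made from oligo(dT)-selected mRNA and read by probe-anchored synthesis on DNA nanospheres, per the labels' protocols. The authors deposited 1 table of 15917 genes with FPKM, rounded to 2 decimals, for 6 libraries. Beside them the authors deposited a log2 ratio with its p-value and q-value. The sources used here do not give the aligner, counting program, build, annotation, strand use or the authors' test, and the depth is unknown.

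A floor of 1 FPKM on the mean over all libraries left 10400 genes, whose FPKM were analysed on the log2(FPKM + 1) scale. Fold changes are on that scale, which understates those of low genes; ratios are of mean FPKM. The test was that of limma (version 3.58.1, R 4.3.3), shNpc1 minus shControl (empirical Bayes with trend, two-sided, Benjamini-Hochberg over all tested genes, threshold 0.05). The script was tested on simulated data, with noise drawn independently for each gene and library. These simulated data held no shift with GC content, so they cannot check the error rate under such a shift. GC content came from the longest coding transcript in GENCODE M21, matched by NCBI gene number (all 45 genes, 98.5% of tested genes); the correction subtracts from each library a spline with 5 degrees of freedom. Alternatives were other pseudocounts, floors, scalings and limma options, and each library left out in turn; the GC correction combined with leaving out shNpc1 replicate 4 was added after seeing the data. Every gene taken by the rule is named, with partners and markers from set lists. The genes and lists were chosen with earlier results of these data known.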

Additional observations from a re-analysis of the deposited data

How the results depend on the processing

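Npc1 kept its direction and its call under every alternative run (it is below a floor of 5 FPKM, where it has no value). The proteasome genes called higher and lower were 1 and 2, with 12.0% and 5.89% of all genes. They were 0 and 2 without a filter (all genes 6.73% and 3.69%), 2 and 2 with TPM (13.5% and 4.16%), 0 and 1 with median centring (8.12% and 7.26%), 0 and 5 with a trimmed mean of M values (9.08% and 7.35%), and 2 and 5 with quantile normalization (10.9% and 7.61%). They were 0 and 4 after the GC correction (13.5% and 11.8%), 1 and 0 without the trend (11.8% and 5.87%), 1 and 1 with robust estimation (11.7% and 5.64%), and 0 and 1 over the 31 subunits of the 20S and 19S particles. With sample weights they were 11 and 20, where 4165 and 3186 of all genes were called, 70.7% of those tested, beside 1251 and 613. After the GC correction 1210 of all genes were lower. When shNpc1 replicate 4 was also left out, 1720 of all genes were higher and 1664 lower (16.8% and 16.2%). In that fit, which was added after seeing the data, 2 proteasome genes were higher and 14 lower (4.44% and 31.1%). Leaving out 1 library gave 0 to 4 higher and 0 to 9 lower, and 309 to 1907 and 160 to 1082 among all genes. The cause of these shifts was not tested. All 3 calls were shared by both other pseudocounts, the floor of 5 FPKM, quantile normalization, sample weights, the fit without shNpc1 replicate 4, and that fit with the GC correction. Elsewhere the called genes were in part different ones. Of the 3 calls, 2 were kept with TPM (without Psma1), a trimmed mean of M values, robust estimation and without shNpc1 replicate 5. Only 1 was kept without a filter, after the GC correction and without the trend. With median centring 0 were kept, and the 1 gene called was Psmd14. The median log2 difference of the 45 genes, -0.034, ran from -0.11 (after the GC correction and without shNpc1 replicate 4) to 0.022 (without shNpc1 replicate 5, where its sign turned).

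For 54 single genes other than Npc1 the log2 difference kept its sign and side of the threshold in 827 of the comparisons with an alternative, passed it in 84, lost its call in 41 and changed sign in 72, in 25 genes, and none of these was called in the reported fit. With TPM these were -0.00019 for Psmb2, -0.0089 for Psmc3 and -0.0056 for Psmc5. With median centring these were -0.011 for Psmb2, -0.019 for Psmc3, -0.016 for Psmc5 and -0.0012 for Psme3. With a trimmed mean of M values these were -0.023 for Psmb2, -0.0017 for Psmb4, -0.032 for Psmc3, -0.028 for Psmc5 and -0.013 for Psme3. With quantile normalization these were -0.045 for Psmb2, -0.012 for Psmc3, -0.046 for Psmc5, -0.016 for Psmd11, -0.045 for Psme3 and 0.028 for Psmb8. After the GC correction these were 0.17 for Psma2, 0.029 for Psma3, -0.066 for Psmb2, -0.067 for Psmb4, -0.072 for Psmb5, -0.13 for Psmc3, -0.032 for Psmc4, -0.083 for Psmc5, 0.028 for Psmc6, 0.039 for Psmd10, -0.0065 for Psmd13, -0.033 for Psmd4, -0.030 for Psme3 and 0.092 for Usp14. With sample weights these were 0.019 for Psma6, -0.079 for Psmb4, -0.055 for Psmb5, -0.076 for Psmc3, -0.019 for Psme3 and 0.041 for Psmg2. After the GC correction and without shNpc1 replicate 4 these were -0.063 for Psmb2, -0.15 for Psmb4, -0.13 for Psmb5, -0.18 for Psmc3, -0.13 for Psmc4, -0.12 for Psmc5, -0.093 for Psmd13, -0.011 for Psmd3, -0.10 for Psmd4, -0.097 for Psme3 and -0.0094 for Psmg1. In that fit Psmc3 was called lower (adjusted p = 0.0226 in limma), and it is counted as a change of sign and not among the 84. Leaving out each library in turn gave ranges of -0.21 to 0.022 for Psma7, -0.015 to 0.050 for Psmb2, -0.29 to 0.030 for Psmb3, -0.083 to 0.10 for Psmb4, -0.047 to 0.14 for Psmb5, -0.14 to 0.051 for Psmb6, -0.14 to 0.0032 for Psmb7, -0.10 to 0.081 for Psmc3, -0.050 to 0.22 for Psmc4, -0.052 to 0.092 for Psmc5, -0.018 to 0.21 for Psmd13, -0.12 to 0.019 for Psmd2, -0.026 to 0.19 for Psmd4, -0.043 to 0.073 for Psme3 and -0.14 to 0.18 for Psmb8. Read depth, which is unknown, limits the low genes most, and 3 libraries in each group limit all p-values. No paired analysis was possible because the groups share no replicate number.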
